A study of Mus musculus with 10 samples.

Results

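Granzymes are serine proteases that cytotoxic lymphocytes, mainly natural killer (NK) cells and activated T cells, store in granules and deliver into target cells through pores made by perforin. The genes were found by their symbols. All 10 mouse granzyme genes listed for this account (Gzma, Gzmb, Gzmc, Gzmd, Gzme, Gzmf, Gzmg, Gzmk, Gzmm and Gzmn) had 1 probe set each that carried that symbol alone, so all 10 were measured among 19938 named genes. The family was selected on its measured log2 differences between adiponectin and vehicle cultures at 72 and 120 h, so its levels and differences are a description with no test.

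Bone marrow cells were flushed from the long bones of male Swiss mice of 4 to 6 weeks and cultured in medium with fetal calf serum and calcitriol, the active form of vitamin D. Treated wells received recombinant mouse adiponectin, a hormone of fat cells, at 5 µg/ml. Their controls are called vehicle in one label and untreated in another, and both arms held calcitriol. At 4, 10, 24, 72 and 120 h, 1 adiponectin and 1 vehicle culture were each profiled on an array, giving 10 arrays in 5 pairs. The series title names lipopolysaccharide contamination. An effect of adiponectin and one of a contaminant in its preparation cannot be told apart on these arrays. Differences with adiponectin below are therefore differences of the treated cultures, whichever of these they come from. The labels do not say whether cultures came from separate or pooled animals, so the p-values rest on variation among these cultures alone. That variation may be technical, and for adiponectin against vehicle it includes change of the difference over the times. Array medians over all probe sets lay between 7.90 and 8.08 on the log2 scale. Precision is limited by having so few arrays. The macrophage markers Adgre1, Csf1r and Cd68 averaged 13.3, 13.1 and 13.6 in adiponectin cultures and 13.0, 13.2 and 13.7 in vehicle cultures on the log2 scale. The other measured macrophage markers, Mertk, Fcgr1 and Cd14, were all higher in adiponectin cultures. They averaged 11.8, 11.8 and 11.7 there, against 11.6, 10.8 and 11.2 in vehicle cultures. In such mixed RNA, more cells of a type and more RNA per cell cannot be told apart.

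Mouse granzymes differ in what they cut and where their genes lie. Granzyme B cuts after aspartate and activates caspases. Granzymes A and K are tryptases that cut after basic residues, and granzyme M cuts after methionine or leucine. Granzymes C to G are rodent enzymes encoded beside Gzmb, several of which appear late in lymphocytes stimulated for long periods, and Gzmn is known from the mouse testis. On GRCm38.p6, 7 of the 10 genes (in the order Gzme, Gzmd, Gzmg, Gzmn, Gzmf, Gzmc and Gzmb) lie together on chromosome 14 within 144.7 kb, from 56117619 to 56262334, with 0 other protein-coding genes between them. The mast cell chymase genes and Ctsg lie on the Gzme side. Gzma and Gzmk lie on chromosome 13 (113093824 to 113180965), and Gzmm lies on chromosome 10 (79689020 to 79695261).

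The promoters of 5 cluster genes are shown, over a range of late values and of likeness in sequence. Gzmd and Gzme are nearly alike in sequence, and a link between sequence and late value was not tested. Each line gives the 250 bases before the RefSeq transcription start on GRCm38.p6, 5′ to 3′ on the gene's strand. Capitals mark the Runx motif TGTGGT on either strand.
Gzmb (chr14:56262335-56262584, minus strand): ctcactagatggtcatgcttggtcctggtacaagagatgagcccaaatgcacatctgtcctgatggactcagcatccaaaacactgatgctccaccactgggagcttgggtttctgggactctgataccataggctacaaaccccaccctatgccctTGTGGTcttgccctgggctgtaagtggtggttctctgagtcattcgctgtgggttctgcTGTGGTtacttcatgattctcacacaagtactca
Gzmd (chr14:56132594-56132843, minus strand): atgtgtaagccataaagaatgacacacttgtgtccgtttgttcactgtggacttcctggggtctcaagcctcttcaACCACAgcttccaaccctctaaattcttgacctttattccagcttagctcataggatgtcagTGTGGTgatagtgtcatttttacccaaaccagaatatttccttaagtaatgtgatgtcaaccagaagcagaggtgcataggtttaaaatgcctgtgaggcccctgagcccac
Gzme (chr14:56120626-56120875, minus strand): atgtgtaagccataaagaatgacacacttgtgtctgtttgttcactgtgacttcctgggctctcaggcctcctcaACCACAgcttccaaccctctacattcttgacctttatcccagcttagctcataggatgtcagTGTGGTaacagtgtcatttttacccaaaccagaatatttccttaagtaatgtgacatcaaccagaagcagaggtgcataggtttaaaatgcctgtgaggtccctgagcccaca
Gzmf (chr14:56211408-56211657, minus strand): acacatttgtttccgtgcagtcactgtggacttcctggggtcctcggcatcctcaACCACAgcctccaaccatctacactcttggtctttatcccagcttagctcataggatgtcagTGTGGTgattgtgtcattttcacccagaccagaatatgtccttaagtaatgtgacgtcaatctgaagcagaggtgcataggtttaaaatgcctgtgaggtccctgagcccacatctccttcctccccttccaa
Gzmn (chr14:56174600-56174849, minus strand): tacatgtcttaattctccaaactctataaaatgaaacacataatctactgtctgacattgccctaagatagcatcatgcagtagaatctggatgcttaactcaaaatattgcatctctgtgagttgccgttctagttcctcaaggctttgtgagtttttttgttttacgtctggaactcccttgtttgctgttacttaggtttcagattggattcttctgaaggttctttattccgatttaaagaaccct

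Gzmb, Gzmc, Gzmd, Gzme, Gzmf and Gzmg each had 2 Runx motifs in this window, and Gzmn had 0. Of 32851 promoter windows of the same length, 14% held at least 1 such motif and 1.27% held 2 or more. In Gzmd, Gzme, Gzmf and Gzmg the starts of the motifs were 62 bases apart, in Gzmc 66 and in Gzmb 59. The promoters of Gzmc to Gzmg resembled each other, with 71.5 to 94.8% identical aligned bases over 10 pairs, so their motifs are not independent matches. Every other pair of granzyme promoters had 46.0 to 54.5%. Promoters of unrelated genes were not aligned, so these lower values are not a measure of likeness. Gzmd and Gzme were the pair at 94.8%. Outside the cluster, Gzma had 1 Runx motif, Gzmk had 0, and Gzmm had 1 before the first of its 2 listed starts and 0 before the other.

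Further letters searched on both strands were the AP-1 motif TGANTCA, found in 6.75% of all windows, the Stat motif TTCNNNGAA (7.02%), the T-box core GTGTGA (12.3%) and an interferon-stimulated response element, written as GAAA repeated after any 2 bases (2.98%). None of them overlapped a Runx motif in the windows of the granzyme genes. Among the cluster genes, Gzmb had 1 AP-1 and 1 T-box match, and the windows of Gzmc, Gzmd, Gzme, Gzmf, Gzmg and Gzmn had 0 matches to these 4. Gzma had 1 match to the interferon-stimulated response element, Gzmk had 2 to the T-box core, and Gzmm had 1 to the Stat motif at its first start and 1 to the T-box core at the other. A match is a run of letters and not a measured binding site.

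Gzmb, the caspase-activating granzyme, was the first of the family to be at least 2-fold higher in adiponectin than in vehicle. Its log2 values in adiponectin cultures were 6.83, 6.84, 8.23, 10.04 and 9.57 at 4, 10, 24, 72 and 120 h, against 6.57, 6.84, 6.68, 7.22 and 6.68 in vehicle cultures. The arms differed by 0.26 at 4 h and 0.00 at 10 h, and from 24 h on each adiponectin value was above all 5 vehicle values. The difference between adiponectin and vehicle was 1.55 at 24 h, 2.82 at 72 h and 2.89 at 120 h, or 2.93-fold, 7.05-fold and 7.41-fold. Its mean over 72 and 120 h, called the late difference from here on, was 2.85, which ranked 7 among the 19938 genes from the highest down.

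Gzmc, known in the mouse for killing cells without caspases, and Gzmd, a neighbour of little-known substrates, were at least 2-fold higher from 72 h on. In adiponectin cultures Gzmc had 6.83, 6.59, 6.91, 8.69 and 9.17 from 4 to 120 h, against 6.57, 7.14, 6.72, 6.93 and 6.48 in vehicle cultures. Gzmd had 6.12, 6.65, 7.11, 9.20 and 10.33 in adiponectin cultures, against 6.97, 7.12, 7.59, 7.25 and 6.83 in vehicle cultures. Up to 24 h Gzmc lay in the vehicle range on all 3 adiponectin arrays, and Gzmd was lower in adiponectin than in vehicle at each of these times, with differences of -0.84, -0.47 and -0.47. Its 4 and 10 h adiponectin values lay below all 5 vehicle values. At 72 h the differences were 1.76 for Gzmc (3.39-fold) and 1.95 for Gzmd (3.86-fold), and at 120 h 2.69 (6.47-fold) and 3.50 (11.3-fold). The 120 h value of Gzmd was the highest difference of any granzyme, and its rank among all genes at that time was 5.

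Gzmf and Gzmg, 2 more members of the cluster, reached their highest values at 120 h. Gzmf had 5.88, 6.08, 5.82, 6.53 and 8.78 in adiponectin cultures, against 5.93, 6.09, 6.11, 6.09 and 6.13 in vehicle cultures. Gzmg had 6.00, 6.33, 6.21, 7.14 and 8.28 in adiponectin cultures, against 6.04, 6.20, 5.96, 6.38 and 6.59 in vehicle cultures. Both were inside the vehicle spread or under it up to 24 h, and above all vehicle values at 72 and 120 h. Differences at 72 h were 0.44 for Gzmf and 0.76 for Gzmg, and at 120 h 2.64 (6.25-fold) and 1.69 (3.23-fold). The late difference of Gzmf, 1.54, thus comes mostly from 1 array.

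Gzme, next to Gzmd, had higher values with time in both arms. It had 9.33, 9.88, 10.59, 11.52 and 12.03 in adiponectin cultures, against 10.11, 9.90, 10.74, 10.99 and 11.31 in vehicle cultures. Between 4 and 120 h the value went up by 2.71 in the adiponectin arm and by 1.20 in the vehicle arm. The adiponectin values started lower (-0.78 at 4 h, below all 5 vehicle values) and ended higher (0.52 at 72 h and 0.72 at 120 h). Granzyme genes of the cluster are close copies, and whether a probe set also binds a neighbour's transcript was not tested, so the split between Gzmc, Gzmd, Gzme, Gzmf and Gzmg is uncertain.

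**Figure D1:**
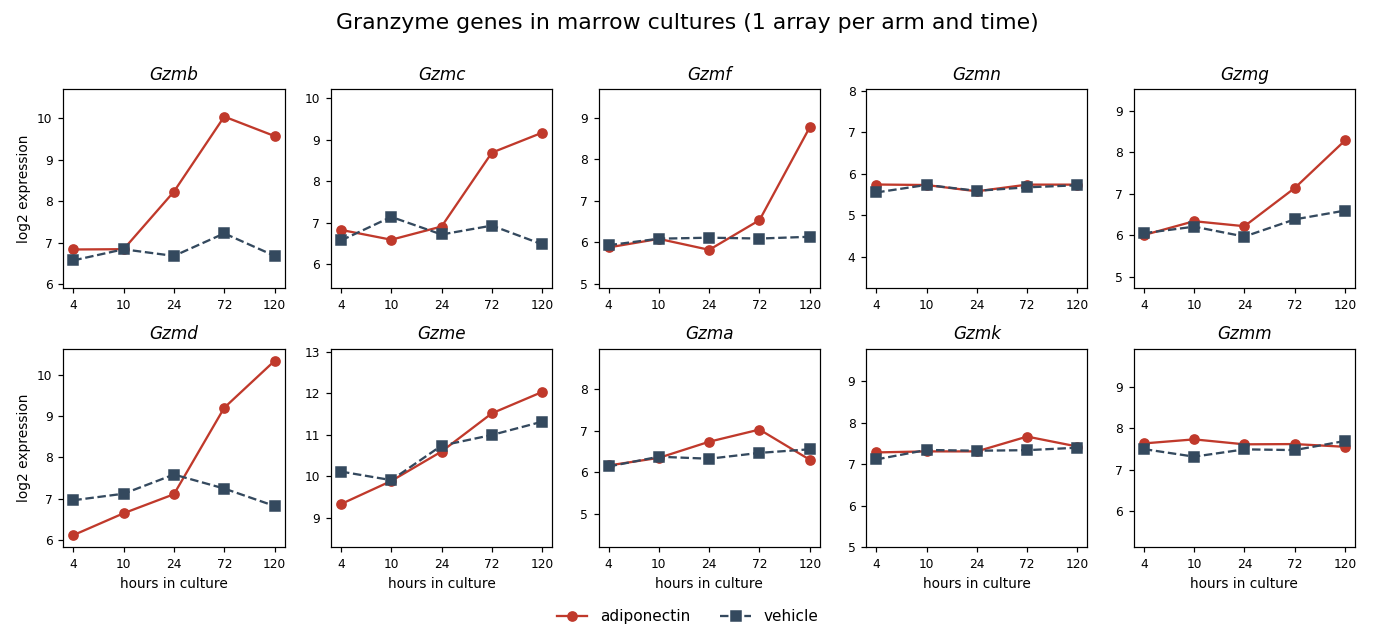
Deposited log2 expression of each granzyme gene (vertical axis, the same span in every panel) against hours in culture (horizontal axis, spaced evenly by time point), with 1 array per point, adiponectin as red circles and vehicle as dark squares. Gzmb, Gzmc, Gzmd, Gzmf and Gzmg leave the vehicle line late, Gzmb by 24 h and Gzmf mainly at 120 h, while Gzme goes up in both arms and Gzmn stays between 5.55 and 5.74.

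The remaining cluster gene and the granzymes of other chromosomes stayed close to vehicle. Gzmn had 5.74, 5.73, 5.58, 5.74 and 5.74 in adiponectin cultures, against 5.55, 5.73, 5.59, 5.68 and 5.73 in vehicle cultures, and its late difference was 0.04. Gzma, the main tryptase of cytotoxic granules, had 6.16, 6.35, 6.73, 7.03 and 6.30 in adiponectin cultures, against 6.14, 6.37, 6.32, 6.46 and 6.55 in vehicle cultures. It was highest in the 72 h adiponectin culture, with a difference of 0.56, and was lower than vehicle at 120 h, at -0.25. Gzmk, the other tryptase, had 7.29, 7.31, 7.31, 7.67 and 7.43 in adiponectin cultures, against 7.12, 7.35, 7.33, 7.34 and 7.40 in vehicle cultures, with its largest difference, 0.33, at 72 h as well. Gzmm, a granzyme of NK cells, had 7.63, 7.73, 7.61, 7.61 and 7.55 in adiponectin cultures, against 7.49, 7.31, 7.49, 7.47 and 7.69 in vehicle cultures. Its arms overlapped, and the late difference was 0.00. These arrays do not give signal over background here, so a small difference in a dim gene does not show that the gene did not change.

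Counted over the family, differences of at least 2-fold toward adiponectin were met by 0 of 10 genes at 4 h and 0 at 10 h, 1 at 24 h (Gzmb), 3 at 72 h (Gzmb, Gzmc and Gzmd) and 5 at 120 h (these with Gzmf and Gzmg). Over all 19938 genes the shares past the same bound were 0.727% at 4 h, 0.893% at 10 h, 0.853% at 24 h, 0.547% at 72 h and 0.752% at 120 h. For the late difference 5 of 10 granzymes passed, beside 0.627% of all genes. The nearest values on either side of that bound were 1.22 for Gzmg and 0.62 for Gzme. No granzyme was at least 2-fold lower at any time, where the shares of all genes were 0.12% at 4 h, 0.13% at 10 h, 0.226% at 24 h, 0.155% at 72 h, 0.0301% at 120 h and 0.0451% for the late difference. The median difference over the 10 genes was 0.08 at 4 h, -0.01 at 10 h, 0.06 at 24 h, 0.54 at 72 h and 1.20 at 120 h, while the median over all genes stayed between -0.03 and 0.07.

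Above all 5 vehicle values lay 1 of 10 granzymes at 4 h (17.3% of all genes), 1 at 10 h (11.5%) and 2 at 24 h (17.9%). At 72 h all 10 granzymes were higher in adiponectin than in vehicle, and 9 of them (Gzmm being the exception) lay above all 5 vehicle values, as 11.6% of all genes did. At 120 h this held for 8 of 10, without Gzma and Gzmm, beside 14.6% of all genes, though Gzmk passed narrowly, at 7.43 against a highest vehicle value of 7.40. Gzmn passed at both times by under 1 hundredth, at 5.742 against 5.735. Both late values were above all vehicle values for 5.68% of all genes. Genes with a late difference of at least 1 and an early mean (4, 10 and 24 h) under 1 numbered 34 of 19938, or 0.171%, and 5 of them were Gzmb, Gzmc, Gzmd, Gzmf and Gzmg. These shares come from the contrast on which the genes were picked and are given for scale only.

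**Figure D2:**
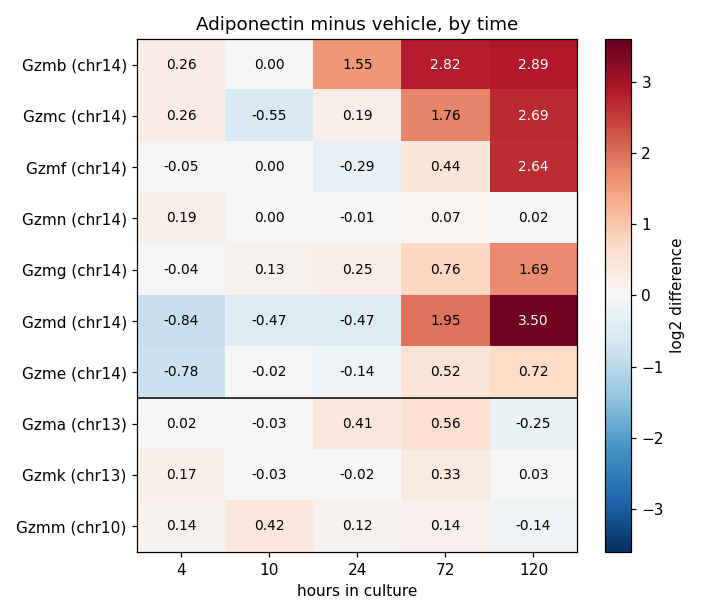
Difference in log2 expression, adiponectin minus vehicle, for each granzyme gene (rows, with cluster genes of chromosome 14 in their order from Gzmb to Gzme above the line) at each time (columns), 1 pair of arrays per cell, red for higher in adiponectin. Values of 1.69 or more at 120 h are found for Gzmb, Gzmc, Gzmf, Gzmg and Gzmd, with Gzmn among them at 0.02, and below the line no value passes 0.56.

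Across the 10 arrays, the genes whose values ran most like those of each late granzyme were found by Pearson's r among genes with an SD of at least 0.3. For Gzmb they were Cd3g (r = 0.97), a chain of the T cell receptor complex, Il2rb (0.95), the receptor chain that interleukins 2 and 15 share, Trgv1 (0.93), a variable segment of the T cell receptor gamma chain, Gzmc (0.92) and the lymphocyte chemokine Xcl1 (0.91). For Gzmc they were Gzmd (0.94), Klrc1 (0.93), which encodes the NK receptor NKG2A, Il2rb (0.93), the perforin gene Prf1 (0.92) and Cd3g (0.92). Gzmd ran closest to Eomes (0.97), a transcription factor of NK and memory T cells, then to Gzmc (0.94), Klrc1 (0.93), Bend6 (0.92) and Il2rb (0.92). For Gzmf the order was Gzmg (0.94), Eomes (0.91), Gzmd (0.87), Klrc1 (0.84) and the metalloproteinase gene Pappa (0.84). Gzmg was closest to Klrc1 (0.95), Gzmf (0.94), the scramblase gene Plscr2 (0.94), Pappa (0.93) and Eomes (0.92). Spearman's rho for these pairs was 0.54 (Gzmd and Il2rb) to 0.94 (Gzmb and Cd3g), and lower than r in each pair. The late granzymes were picked for high values in the late adiponectin cultures. A gene that is also high on those arrays therefore has a high r with them. For Gzmf, r rests mostly on the 120 h adiponectin array, at 8.78. Whether these genes share a cell type or a regulator was not tested. Arrays of a time share a culture period and arrays of an arm share the treatment, and these values describe the 10 arrays only. Within the family, Gzmb correlated with Gzma at 0.63, Gzmk at 0.76, Gzmm at 0.14 and Gzmn at 0.28.

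Genes that work with granzymes or mark the cells that could hold them were then compared by 13 lists, of which 128 of 141 genes were measured. Over these 128 genes 16 rose and 2 fell with adiponectin (limma, time point as a block, Benjamini-Hochberg adjusted p under 0.05 over all 19938 genes), where 2.05% of all genes rose and 0.371% fell. These shares of all genes are also the background for the count of each list below. In the fit with time point as a block, change of a gene's difference over the times counts as error. A gene higher only late can therefore fail this test, and genes with steady differences pass more easily. Nkg7, with differences of -0.88 at 4 h and 2.33 at 120 h, had a limma adjusted p of 0.877. The lists were chosen with results of these data known. A change of the difference with the logarithm of time was called by limma for 0 of 128 genes and for 0% of all genes. At an unadjusted p under 0.05 it was positive for 23 and negative for 9 of the 128, and positive for 620 and negative for 1339 of all 19938 genes. With an intensity trend and robust prior, limma called 2 rises and 3 falls over all genes and 0 among the 128. The smallest adjusted p among the 128 was that of Il2rb, 0.0887.

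Of the granule partners, Nkg7 and Prf1 had the highest late differences. Nkg7, a granule membrane protein needed for release, had 10.75, 10.43, 10.01, 10.00 and 10.01 in adiponectin cultures, against 11.64, 10.84, 10.45, 8.90 and 7.68 in vehicle cultures. It was lower than vehicle up to 24 h and higher afterwards, as the vehicle values were lower with time while those of the adiponectin arm held near 10, and its late difference was 1.72 (slope of the difference 0.61 ± 0.09 per doubling of time, SE; limma adjusted p = 0.151). The mean difference of Nkg7 over times did not pass either (limma adjusted p = 0.877). Prf1, which encodes perforin, had 7.71, 7.70, 7.81, 8.71 and 8.69 in adiponectin cultures, against 7.61, 7.83, 7.33, 7.73 and 7.90 in vehicle cultures. Both late adiponectin values of Prf1 were above all vehicle values, with a late difference of 0.89 and a mean over times of 0.44 ± 0.47 (SD, n = 5 pairs; limma adjusted p = 0.220). Its slope did not pass (limma adjusted p = 0.438). Neither the mean over times nor the slope is a test of the late difference itself. Of 13 partners, 2 rose and 0 fell: Ctsc, the peptidase that activates granzymes (0.43 ± 0.08; limma adjusted p = 0.00712), and the cathepsin gene Ctsw (0.41 ± 0.09; 0.00943), each higher in 5 of 5 pairs with no single difference over 0.52. The list's median late difference was 0.26, against -0.03 over all genes.

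Among serpins, which block granzymes inside cells, 2 of 5 rose. Serpinb9, the inhibitor of granzyme B, had 8.48, 8.99, 9.84, 9.20 and 8.93 in adiponectin cultures, against 8.25, 7.54, 8.09, 8.13 and 7.90 in vehicle cultures. All adiponectin values exceeded all vehicle values, and the mean difference was 1.10 ± 0.57 (limma adjusted p = 0.00454; higher in 5 of 5 pairs), highest at 24 h. Serpinb6b, an inhibitor of granzyme A in the mouse, rose by 0.65 ± 0.41 (limma adjusted p = 0.0244; 5 of 5 pairs), and that call was lost without the 10 h or the 120 h pair (up to 0.0724). Serpinb9b had a late difference of -0.44 (limma adjusted p = 0.834 for its mean over times).

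Of 14 NK cell markers 1 rose. Klrk1, which encodes the activating receptor NKG2D, had 7.61, 8.49, 9.47, 8.47 and 8.17 in adiponectin cultures, against 6.56, 6.22, 6.79, 6.65 and 6.61 in vehicle cultures. Its arms did not overlap, and its difference was already 1.06 at 4 h and 2.68 at 24 h (mean 1.88 ± 0.63; limma adjusted p = 0.000178; 5 of 5 pairs). That difference was thus present before any granzyme reached 2-fold, and activated T cells also make Klrk1. Klrc1 and Klrd1, whose products NKG2A and CD94 pair as an inhibitory receptor, had their highest differences at 120 h. Klrc1 had 5.05, 5.22, 5.32, 6.26 and 6.56 in adiponectin cultures, against 4.94, 5.24, 5.20, 5.40 and 5.51 in vehicle cultures. Klrd1 had 6.82, 7.09, 6.93, 7.05 and 7.58 in adiponectin cultures, against 6.80, 7.12, 7.45, 6.73 and 6.24 in vehicle cultures. The late differences were 0.95 for Klrc1 and 0.83 for Klrd1, and neither gene passed a test. The limma adjusted p was 0.294 and 0.833 for the mean over times, and 0.438 and 0.501 for the slope. Ncr1, the defining NK receptor NKp46, had 6.10, 5.84, 5.92, 6.56 and 7.29 in adiponectin cultures, against 5.89, 6.42, 5.89, 6.61 and 6.44 in vehicle cultures, so it was higher in adiponectin at 3 of 5 times, and the 120 h value alone was above all 5 vehicle values. The mean level over the 14 NK markers lay between 6.30 and 6.52 on adiponectin arrays and between 6.04 and 6.30 on vehicle arrays. Klrk1 weighs heavily in that gap, as its mean difference over the times was 1.88 and the median over the 14 was 0.09. Late, the median difference over the 14 was 0.30, against -0.03 over all genes. The part of NK cell number in the granzyme differences was not tested.

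Of 17 T cell markers 0 rose and 1 fell, Cd28 (-0.85 ± 0.25; limma adjusted p = 0.000492; lower in 5 of 5 pairs), the costimulatory receptor. Cd3g had 6.96, 6.99, 7.24, 7.59 and 7.67 in adiponectin cultures, against 6.77, 6.86, 6.82, 7.00 and 6.75 in vehicle cultures. Its late difference was 0.76, with a mean of 0.45 ± 0.32 (limma adjusted p = 0.0713; higher in 5 of 5 pairs), and that of Icos, a receptor of activated T cells, was 0.60. Of the other CD3 genes, Cd3e differed by 0.21 ± 0.14 (limma adjusted p = 0.309; higher in 5 of 5 pairs) and Cd3d by -0.31 ± 0.25 (limma adjusted p = 0.186; lower in 5 of 5 pairs). Cd8a, which marks the cytotoxic T cell class, had 8.74, 8.51, 8.81, 8.06 and 7.98 in adiponectin cultures, against 8.47, 8.32, 8.19, 8.15 and 8.09 in vehicle cultures. It was higher in adiponectin up to 24 h and slightly lower at 72 and 120 h. Cd8b1, the other CD8 gene listed, was higher in adiponectin in 5 of 5 pairs (0.38 ± 0.35, limma adjusted p = 0.192). Its late difference was 0.07. The mean level over the list was 8.08 to 8.28 on adiponectin arrays and 8.05 to 8.22 on vehicle arrays, and the part of T cell number was not tested.

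**Figure D3:**
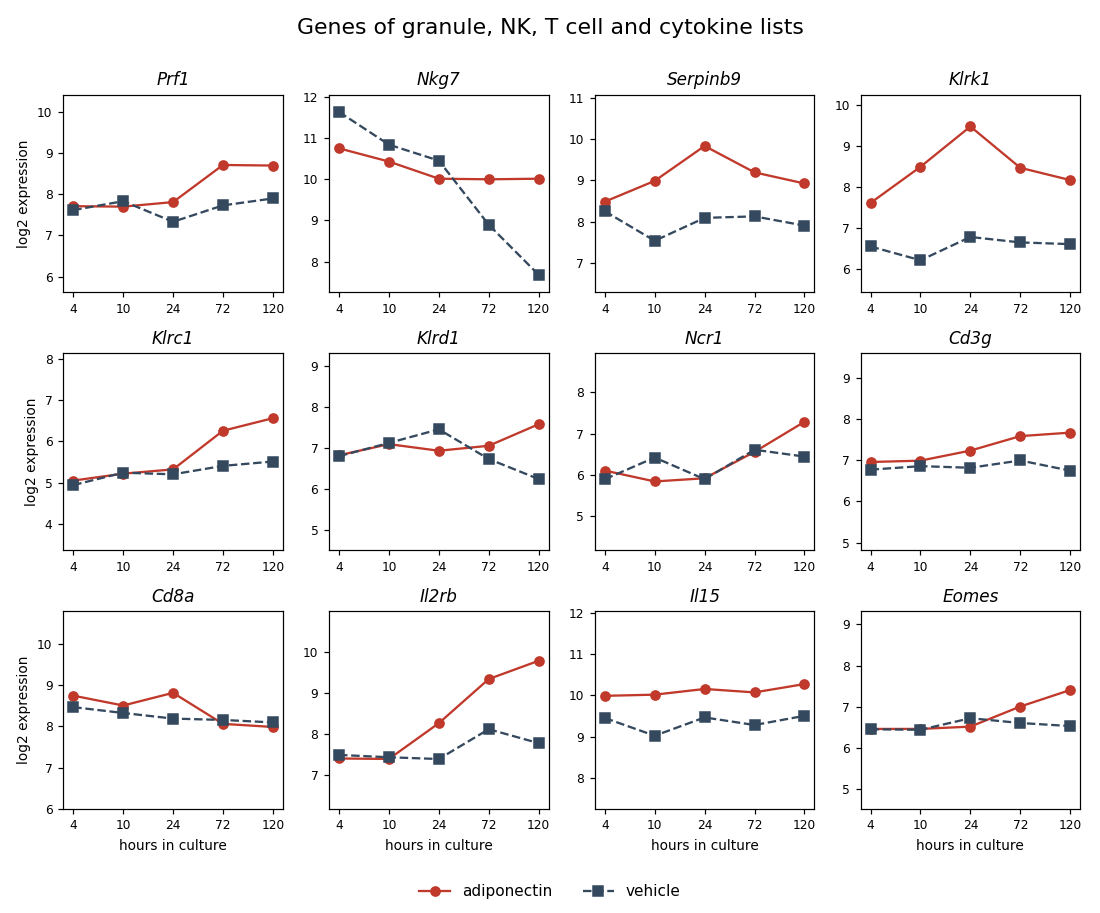
Deposited log2 expression (vertical axis, same span in every panel) against hours in culture for 12 genes of the granule, serpin, NK, T cell, cytokine and transcription factor lists, 1 array per point, adiponectin as red circles and vehicle as dark squares. Prf1, Klrc1 and Eomes separate at 72 and 120 h, Il2rb from 24 h, Klrk1, Serpinb9 and Il15 separate by 10 h, and the Nkg7 lines cross after 24 h.

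The interleukin 15 axis, which sustains NK cells and induces granzymes, held 2 genes that rose and 1 receptor chain that differed late. Il15 had 9.99, 10.02, 10.16, 10.07 and 10.28 in adiponectin cultures, against 9.45, 9.02, 9.47, 9.28 and 9.50 in vehicle cultures. Every adiponectin value was above every vehicle value, and the difference, 0.76 ± 0.17 on average (limma adjusted p = 0.000352; 5 of 5 pairs), was already present at 4 h. Il15ra, which presents interleukin 15 on the cell surface, rose by 0.71 ± 0.19 (limma adjusted p = 0.000876; 5 of 5 pairs). Il2rb had 7.41, 7.40, 8.27, 9.34 and 9.78 in adiponectin cultures, against 7.50, 7.44, 7.40, 8.12 and 7.78 in vehicle cultures. The arms were together at 4 and 10 h and apart from 24 h on, as with Gzmb, and the late difference was 1.61 (slope 0.42 ± 0.05 per doubling of time; limma adjusted p = 0.0887). The mean difference of Il2rb over times did not pass either (limma adjusted p = 0.203). Il2ra, the high-affinity chain of the interleukin 2 receptor, had a late difference of 1.06 (limma adjusted p = 0.307 for the slope and 0.110 for the mean over times).

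Of the 17 measured cytokine inputs 5 rose and 0 fell. Besides Il15 and Il15ra they were Il21r, the interleukin 21 receptor (0.76 ± 0.07; limma adjusted p = 0.000114), Il18 (0.89 ± 0.52; 0.0117) and Il12b, a subunit of interleukin 12 (0.88 ± 0.62; 0.0290), each higher in 5 of 5 pairs. Leaving out 1 pair ended the calls of Il18 (without 10, 24 or 120 h, up to 0.0802) and Il12b (without 4, 10 or 24 h, up to 0.130). Il12b was higher early, with an early mean difference of 1.31 and a late difference of 0.23.

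Of 10 transcription factors of cytotoxic lymphocytes 0 rose and 1 fell, Bhlhe40 (-0.39 ± 0.19; limma adjusted p = 0.0380; lower in 5 of 5 pairs), whose call was lost without 10, 24, 72 or 120 h (up to 0.184). Eomes had 6.46, 6.46, 6.52, 7.01 and 7.41 in adiponectin cultures, against 6.45, 6.44, 6.72, 6.61 and 6.53 in vehicle cultures. Its 2 late adiponectin values were above all vehicle values, with a late difference of 0.64 (limma adjusted p = 0.697 for the mean over times and 0.499 for the slope). Prdm1, which encodes Blimp-1, had a late difference of -0.38.

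Among 9 other effectors 4 rose, each with a difference above 1 at 4 h: Tnfsf10, the death ligand TRAIL (1.80 ± 0.51; limma adjusted p = 7.35e-05), Tnf (0.96 ± 0.60; 0.0144), Ccl3 (0.60 ± 0.30; 0.0108) and Ccl4 (0.76 ± 0.56; 0.0432), each higher in 5 of 5 pairs. Macrophages make these as well. The calls of Ccl3 (without 24 h, 0.0653) and Ccl4 (without 10, 24 or 120 h, up to 0.195) depended on single pairs. Xcl1 had 7.46, 7.52, 8.02, 8.25 and 8.65 in adiponectin cultures, against 7.47, 7.25, 7.29, 7.65 and 7.67 in vehicle cultures. Its 3 adiponectin values from 24 h on were above all vehicle values, and its mean difference, 0.52 ± 0.39, did not pass (limma adjusted p = 0.0672).

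Cells other than NK and T cells can also make granule proteases. Of 8 markers of plasmacytoid dendritic cells, which can express Gzmb, 1 rose, Bst2 (1.26 ± 0.42; limma adjusted p = 0.000346; 5 of 5 pairs), which interferon also induces. The defining markers Siglech and Ccr9 had late differences of -0.15 and -0.27, and both fell with time in culture across both arms (limma adjusted p = 0.000298 and 0.00146). Of 9 mast cell and basophil markers 0 rose and 0 fell, and the late differences of Cpa3, Prss34 and Gata2 were -0.44, -0.23 and 0.17. The mean level over the plasmacytoid list was 8.93 to 10.07 on adiponectin arrays and 8.78 to 9.72 on vehicle arrays. Bst2 weighs heavily in that gap, as the median of the mean differences over the list was 0.05. The part of these cells in the Gzmb difference was not tested. At an unadjusted p under 0.05 the counts for the effect of adiponectin were 40 up and 9 down of the 128 genes, and 1178 up and 840 down of all 19938.

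The proteases that neighbour the cluster on chromosome 14 were examined in the same way. Of 6 measured, 0 rose and 0 fell (limma), and 0 had a late difference of at least 1. Of all genes 2.05% rose, 0.371% fell and 0.627% had such a late difference. Counts of 0 among 6 genes are near those shares and do not set these genes apart. Ctsg, the cathepsin of neutrophil granules next to Gzme, had 12.19, 11.98, 11.52, 10.38 and 9.12 in adiponectin cultures, against 12.50, 12.15, 11.95, 10.17 and 8.33 in vehicle cultures, so it was lower with time in both arms. Its late difference was 0.50, as was that of Mcpt8, a basophil protease, and Mcpt2 was at -0.21. The neutrophil granule genes Elane and Mpo, which lie elsewhere, had late differences of 0.44 and 0.40 and Ly6g of -0.44. Other neutrophil granule genes of that list differed in sign, with Prtn3 at 0.34 and Ltf, Camp and Ngp at -0.40, -0.16 and -0.11. The median late difference over the 9 neutrophil markers was -0.11.

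Time in culture moved many of these genes in both arms. With log2 hours beside treatment, 14 of the 128 rose and 47 fell (limma adjusted p under 0.05), where 9.81% of all genes rose and 8.67% fell. These were 1956 and 1728 genes, whereas centring the arrays on their medians gave 1536 and 2135. That fit counts the 2 arrays of a time as independent. It also gives a common slope for both arms, so a change within each arm was not tested. Nkg7, for example, had 10.01, 10.00 and 10.01 in adiponectin cultures from 24 to 120 h. All 9 neutrophil markers and 4 of 5 B cell markers (Cd79a, Cd79b, Ms4a1 and Pax5) fell, as did 6 of 13 granule partners (Srgn, Nkg7, Rab27a, Unc13d, Stx11 and Lyst). Among NK markers Ncr1, Klrb1a and Klrc1 rose and Cd226 fell, and among T cell markers Cd4, Thy1 and Cd28 rose while 6, including Cd3d, Cd8a and Cd8b1, fell. Of 6 macrophage markers 0 rose and 0 fell with time, and Fcgr1, an Fc receptor, rose with adiponectin (0.98 ± 0.48; limma adjusted p = 0.00363; 5 of 5 pairs). Cd14 and Mertk had late differences of 0.61 and 0.31. Cd79a, Cd79b and Ms4a1 were at 0.39, 0.21 and 0.34 late.

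**Figure D4:**
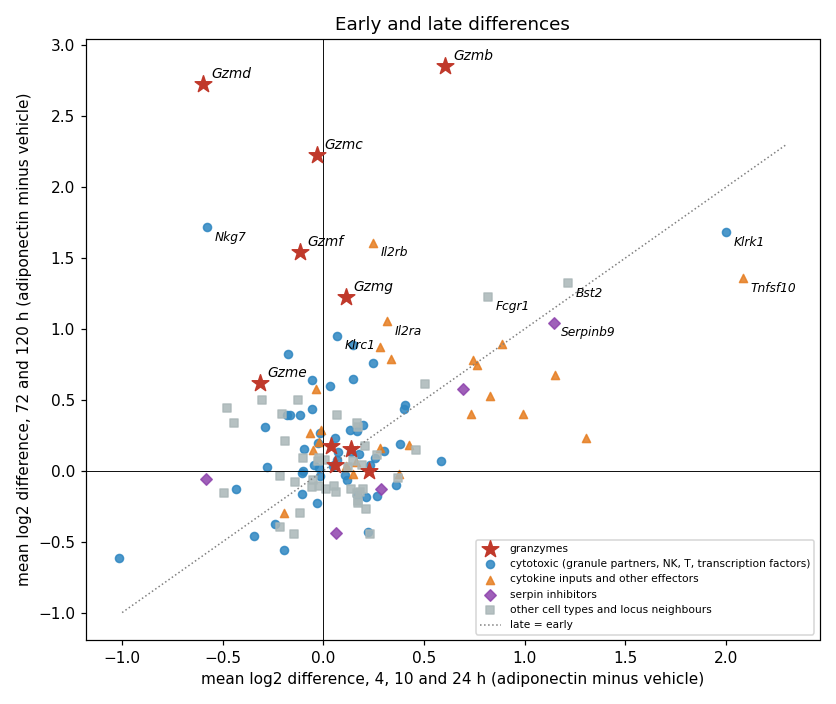
Mean log2 difference, adiponectin minus vehicle, over 4, 10 and 24 h (horizontal) against that over 72 and 120 h (vertical) for the 10 granzymes (red stars) and 128 companion genes (other symbols by list), with labels on granzymes past 0.5 and other genes past 0.9 late. Gzmb, Gzmc, Gzmd, Gzmf and Gzmg sit at 1.22 to 2.85 late with early means of -0.60 to 0.61, in the same area as Nkg7 and Il2rb, while Serpinb9 and Bst2 lie near the dotted line of equal differences and Tnfsf10 lies under it.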

How the data were processed

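Mouse whole-transcript Affymetrix arrays were used. Per the labels' protocols, 100 ng of RNA entered the labelling. The deposited values are log2 values, 1 per probe set and array (35556 probe sets, 10 arrays). Affymetrix Expression Console, Partek and RMA, which corrects background, quantile-normalizes and summarises probes, are named by the submitters' processing notes. The sources used here give no versions, step order or genome build. A shift common to most transcripts would be largely lost in quantile normalization.

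Probe sets with 1 symbol in the platform table (21789) were kept, and the one with the highest mean stood for each gene (19938). Each granzyme had 1. Symbols were checked by Entrez ID against RefSeq GRCm38.p6, and 0 changed. Promoters came from RefSeq on that build, matched by symbol for 10 of 10 genes, with global alignment in Biopython 1.88. Limma 3.58.1 in R 4.3.3 (lmFit, eBayes, two-sided, Benjamini-Hochberg over all genes) fitted treatment with time point as a block (4 residual degrees of freedom), treatment by log2 hours (3), and log2 hours beside treatment (7). Pairs are arrays with the same labelled time, and same-time arrays had deviations from their arm means that correlated at 0.42 to 0.80. The best array of another time in the opposite arm correlated at 0.41 to 0.64, and higher than the same-time array at 4 h (0.58 against 0.57) and 10 h (0.64 against 0.59). The scripts were tested on simulated data. The granzymes and the gene lists were chosen with earlier results of these data known. Apart from granzymes, the genes named were the members of each list past the threshold with adiponectin or in its change with time, the 3 per list with the largest absolute late difference, the defining markers Prf1, Ncr1, Cd3e and Cd8a, and for each granzyme with a late difference of at least 1 the 5 best-correlated genes. Genes named for time in culture, and Adgre1, Csf1r, Cd68, Cd3d, Cd8b1, Prtn3, Ltf, Camp and Ngp, were chosen after their values were seen. Alternatives were other scalings, a filter on dim genes, another probe set summary, another prior, other treatment of time, and leaving out each pair.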

Additional observations from a re-analysis of the deposited data

Results flagged for a closer look

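The 120 h adiponectin value of Gzmf, 8.78, and its 120 h difference from vehicle, 2.64, stood apart from the other 4 times, with a gap to the nearest value above Dixon's 95% critical value for 5 samples (0.71). So did the 4 h vehicle values of Gzmf, 5.93, and Gzmk, 7.12, the 24 h adiponectin value of Gzmn, 5.58, and the 4 h difference of Tnf, 1.99. The 5 values of an arm are different times and not repeats, 79 such sets were examined, and chance alone picks out about 1 in 20. Gzmd, Gzme and Gzmf were lower in adiponectin at each of 4, 10 and 24 h and higher at 72 and 120 h (the 10 h differences of Gzme and Gzmf were close to 0), and their late minus early differences were 3.32, 0.94 and 1.66. These turns of sign were not tested.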

How the results depend on the processing

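With each array centred on its median or quantile normalization repeated, 5 granzymes kept late differences of at least 1. At 72 h alone the count was 3 and at 120 h alone 5. Each granzyme has 1 probe set, so other probe set choices could not give other values. Among the 128 companion genes, 16 rose with adiponectin, but 5 without the time point as a block (no replicate block, that is unpaired), where 0 fell. The 2 that fell became 1 after repeated quantile normalization and 0 when log2 hours replaced the block. Leaving out 1 pair gave 12 to 18 risen and 1 to 3 fallen genes. The change with time was called for 0 of the 128 genes, and each alternative run also gave 0 of them. Rises with time in culture numbered 14, but 9 with arrays centred, 8 among genes above the median level and 7 on the mean of both arrays of each time, and 5 to 18 with 1 pair left out (9 without 10 h, 6 without 72 h and 5 without 120 h). Falls with time numbered 47, and 28 to 51 with 1 pair left out (28 without 120 h). Examples of calls that ended under other settings, as limma adjusted p, were those of Tnf (0.0926) and Il12b (0.0905) with an intensity trend and robust prior, Cd28 (0.0632) when log2 hours replaced the block, and Serpinb9 (0.0565) and Tnfsf10 (0.0679) unpaired. Over all genes 408 rose and 74 fell with adiponectin, but 146 and 4 unpaired and 283 and 30 when log2 hours replaced the block, and the trend and robust prior gave 117 falls. Rises and falls with time over all genes were 985 and 974 on the mean of both arrays. Without the 24 h pair 21 genes fell with adiponectin, without 10 h 46, and without 120 h the rises and falls with time were 674 and 650 (1259 and 1112 without 72 h). The late difference of Gzma, 0.16, was 0.56 at 72 h alone and turned to -0.25 at 120 h alone, and that of Gzmm, 0.00, was -0.14 at 120 h alone. No other recomputed value turned its sign under the alternatives run. The causes were not tested. The sources used here give no signal over background, which limits what dim genes can show.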
